A study of Mus musculus with 6 samples.

Results

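The genes described here are 34 markers of the nonparenchymal cells of the liver, of 48432 genes in the table. They were chosen as named lists of 4 cell groups: 11 genes of Kupffer cells, 9 of the sinusoidal endothelium, 10 of stellate cells and 4 of lymphocytes. All 34 were found in the table by symbol, 32 had enough counts to be tested, and Cd3e and Cd79a did not. Livers of 10-week-old mice were profiled as total RNA in 2 groups of 3 libraries: Li-KO, labelled as a liver-specific knockout of Klf15, and Ctl, which carried the Albumin-Cre transgene. The albumin promoter that drives this Cre is active in hepatocytes, so the cells that express most of the genes below are not those in which Cre is made. The labels do not say which Cre or which exon was used in Li-KO, nor the sex, feeding state or time of sampling. They also leave unsaid whether replicates are different mice. P-values therefore measure the spread between these libraries.

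Nonparenchymal cells are the smaller, non-hepatocyte cells that line and surround the sinusoids, the capillaries of the liver. Kupffer cells are resident macrophages that take up particles and aged red cells from the blood. Sinusoidal endothelial cells form a fenestrated wall and clear waste molecules through scavenger receptors. Stellate cells lie beneath that wall, store vitamin A as retinyl esters, and are the main source of fibrillar collagen when they become myofibroblasts. In bulk tissue, fewer cells of a type and less RNA per cell cannot be told apart.

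Klf15, the deleted transcription factor, was at 54.3, 41.6 and 51.8 CPM (counts per 1000000 fragments) in the Li-KO libraries, against 345.5, 174 and 196 CPM in the Ctl libraries. Its log2 fold change, Li-KO over Ctl, was -2.28 ± 0.26 (SE, adjusted p = 0.00275), and it was called in every fit run. Library totals, in units of 1000000 fragments, were 30.1 to 42.8 in Li-KO and 35.5 to 42.4 in Ctl. The hepatocyte list summed to 24750 to 30980 CPM in Li-KO and 21660 to 27800 CPM in Ctl, and Prss1, Pnlip, Ins2, Ckm and Myh4, markers of pancreas and muscle, had 0 counts in all 6 libraries. Other genes of their list, mesothelium and other tissue, were detected, and Cela1 had its highest mean FPKM. That list of 15 genes summed to 15.04 to 16.92 CPM in Li-KO and 13.16 to 18.76 CPM in Ctl.

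Calls were made with edgeR's quasi-likelihood test at a Benjamini-Hochberg adjusted p under 0.05 over all 16533 genes tested. Of the 32 markers tested, 2 were called, both lower in Li-KO: Rgs5 and Hand2, which are on the stellate list. This is 6.25% of the markers tested, against 12.0% of all genes tested. By direction, 2 of 32 markers were lower and 0 were higher, where 5.9% and 6.11% of all genes tested were called lower and higher. An unadjusted p under 0.05 was reached by 7 of the 32, and by 4867 of all 16533 genes tested, the background for such counts below. No marker of the Kupffer, endothelial or lymphocyte groups was called by edgeR, where 1, 1 and 0 of them had an unadjusted p under 0.05. DESeq2 called 0 Kupffer, 1 endothelial (Fcgr2b) and 0 lymphocyte markers. Over all genes it called 1603 higher and 1555 lower, the background for its counts below, where edgeR called 1010 and 976. These counts changed with the library left out, and so did those over all genes. Without Li-KO replicate 2, 7 markers were called lower and 1 higher, beside 1447 and 1102 of all genes. Without Li-KO replicates 0 or 1, 1 and 0 markers were called lower, beside 554 and 250 of all genes. Without Ctl replicates 0, 1 or 2, 1, 0 and 0 markers were called lower, beside 602, 234 and 387 of all genes. With all 6 libraries, 976 of all genes were called lower. The groups of 3 libraries did not overlap in 3 of the 32 (Dcn, Rgs5 and Hand2, all lower in Li-KO), against 35.2% of all genes tested in either direction 17.8% in the lower direction and 17.4% in the higher one. The median log2 fold change was -0.06 for Kupffer genes, -0.15 for endothelial genes, -0.004 for stellate genes and -0.06 for the 2 tested lymphocyte genes, beside -0.01 for all genes tested.

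**Figure D1:**
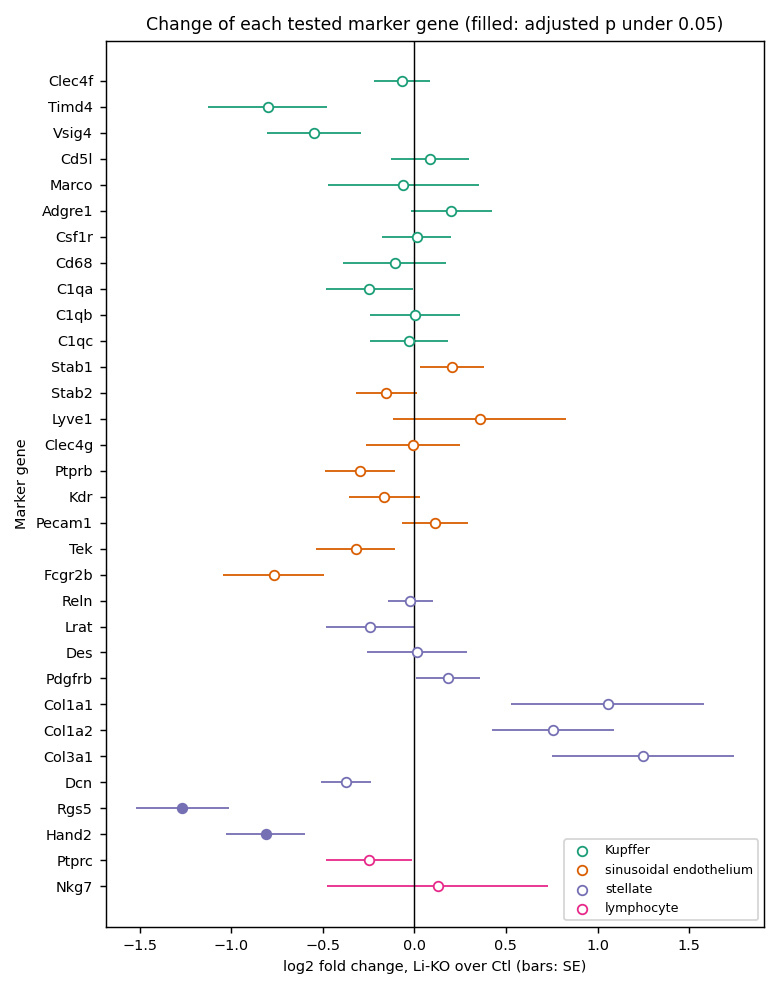
Log2 fold change (Li-KO over Ctl, x axis) of the 32 tested marker genes (y axis), coloured by cell group, with bars of 1 SE. Filled points passed an adjusted p under 0.05: only Rgs5, at -1.27, and Hand2, at -0.81, are filled, and the 3 collagen genes lie to the right with wide bars.

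The sequence just before the start of transcription is shown for 5 markers: the 2 that were called, Col3a1, the collagen with the largest fold change, and the Kupffer genes Vsig4 and C1qb. Each line gives the 250 bases upstream of the RefSeq start on the gene's own strand, 5′ to 3′ (RefSeq, GRCm38.p6, the assembly also called mm10). Capitals mark matches on either strand to any of 4 motifs. TATAAA is the core of the box found upstream of many tissue-specific genes. CCAAT is the pentamer that the factor NF-Y binds. GAGGAA is a core of sites for the macrophage factor PU.1. CCACCC is of the kind that Kruppel-like factors bind. These motifs were chosen after the values were seen.
Rgs5, chr1:169655251-169655500, plus strand: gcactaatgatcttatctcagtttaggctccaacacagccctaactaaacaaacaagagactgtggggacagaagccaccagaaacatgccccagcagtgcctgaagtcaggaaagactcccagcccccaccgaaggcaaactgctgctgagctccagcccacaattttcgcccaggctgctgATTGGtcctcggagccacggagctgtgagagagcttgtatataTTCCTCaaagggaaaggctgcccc
Hand2, chr8:57320733-57320982, plus strand: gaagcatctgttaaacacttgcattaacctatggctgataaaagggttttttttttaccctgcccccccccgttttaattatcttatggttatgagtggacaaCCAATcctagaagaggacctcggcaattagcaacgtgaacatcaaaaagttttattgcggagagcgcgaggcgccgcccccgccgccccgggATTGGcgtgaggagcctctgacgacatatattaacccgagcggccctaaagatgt
Col3a1, chr1:45311288-45311537, plus strand: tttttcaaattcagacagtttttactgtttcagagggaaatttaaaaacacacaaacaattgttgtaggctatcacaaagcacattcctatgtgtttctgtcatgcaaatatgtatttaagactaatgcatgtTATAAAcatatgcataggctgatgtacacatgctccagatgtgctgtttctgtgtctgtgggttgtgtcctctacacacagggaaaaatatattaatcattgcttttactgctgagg
Vsig4, chrX:96293439-96293688, minus strand: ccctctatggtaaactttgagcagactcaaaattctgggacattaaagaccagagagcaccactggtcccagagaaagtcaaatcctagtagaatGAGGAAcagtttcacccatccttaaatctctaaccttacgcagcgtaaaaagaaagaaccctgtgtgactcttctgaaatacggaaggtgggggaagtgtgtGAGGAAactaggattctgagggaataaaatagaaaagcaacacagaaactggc
C1qb, chr4:136886201-136886450, minus strand: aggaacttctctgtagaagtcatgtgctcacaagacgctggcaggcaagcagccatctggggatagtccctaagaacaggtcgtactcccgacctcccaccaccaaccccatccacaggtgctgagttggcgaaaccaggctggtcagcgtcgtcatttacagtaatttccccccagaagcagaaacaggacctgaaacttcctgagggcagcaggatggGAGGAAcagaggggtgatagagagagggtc
Rgs5 held 1 CCAAT and 1 GAGGAA match, Hand2 held 2 CCAAT matches, and neither held CCACCC within these letters. Col3a1 held 1 TATAAA match, Vsig4 held 2 GAGGAA matches and C1qb held 1. Promoters were in the table for 25 of the 34 markers. GAGGAA was present in 6 of 8 Kupffer promoters, 1 of 6 endothelial, 1 of 7 stellate and 3 of 4 lymphocyte promoters, and in 23.13% of 27025 promoters of the same length. CCACCC was present in 6 of 8 Kupffer, 3 of 6 endothelial, 1 of 7 stellate and 2 of 4 lymphocyte promoters, against 27.68% of all promoters. Vsig4 and C1qb are not among those 6, and none of the 5 sequences shown held CCACCC, so they do not represent the Kupffer promoters for this motif. CCAAT was present in 3 of 8, 1 of 6, 4 of 7 and 1 of 4 in the same order of groups, against 34.46%, and TATAAA in 0 of 8, 1 of 6, 1 of 7 and 1 of 4, against 12.97%. A match describes the letters and is not a binding site.

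Rgs5 and Hand2 fell. Rgs5 (ENSMUSG00000026678, chromosome 1, 169655501 to 169695813, plus strand, mm10) encodes a regulator of G protein signalling and is a marker of pericytes and vascular smooth muscle as well as of stellate cells. It was at 37.9, 22.5 and 43.7 CPM in Li-KO replicates 0, 1 and 2, against 106, 70.3 and 74.2 CPM in Ctl replicates 0, 1 and 2. Every Li-KO library was below every Ctl library, and the highest of the 6 was Ctl replicate 0. The means were 34.7 ± 10.96 CPM in Li-KO and 83.5 ± 19.6 CPM in Ctl (SD, n = 3 libraries each). The log2 fold change was -1.27 ± 0.26 (adjusted p = 0.0199). Without Li-KO replicate 1, Ctl replicate 1 or Ctl replicate 2 the call ended, with log2 fold changes of -1.04, -1.36 and -1.35 and adjusted p of 0.0506, 0.0535 and 0.054. It also ended with limma on log2(FPKM + 1), at 0.0512.

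Hand2 (chromosome 8, 57320983 to 57324633, plus strand) encodes a basic helix-loop-helix transcription factor of mesenchymal cells that is used as a marker of stellate cells. It was at 3.45, 3.79 and 4.86 CPM in the Li-KO libraries, against 6.45, 7.99 and 6.87 CPM in the Ctl libraries. The groups did not overlap, with means of 4.03 ± 0.737 CPM in Li-KO and 7.10 ± 0.799 CPM in Ctl (SD, n = 3 each). The log2 fold change was -0.81 ± 0.21 and the adjusted p 0.0437. With a library omitted, this call held only without Li-KO replicate 2 and ended without any other library, at adjusted p of 0.073 to 0.175, while the log2 fold change stayed between -0.98 and -0.69. It also ended with limma on FPKM, at 0.0779 and 0.0831. The antisense transcript Hand2os1, chosen after its values were seen, overlaps Hand2. It had 2.35 ± 0.404 CPM in Li-KO and 3.07 ± 0.807 CPM in Ctl (log2 fold change -0.38 ± 0.29, adjusted p = 0.424). Whether the counting used strand is not stated in the labels, so reads of this pair may not be fully separated.

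**Figure D2:**
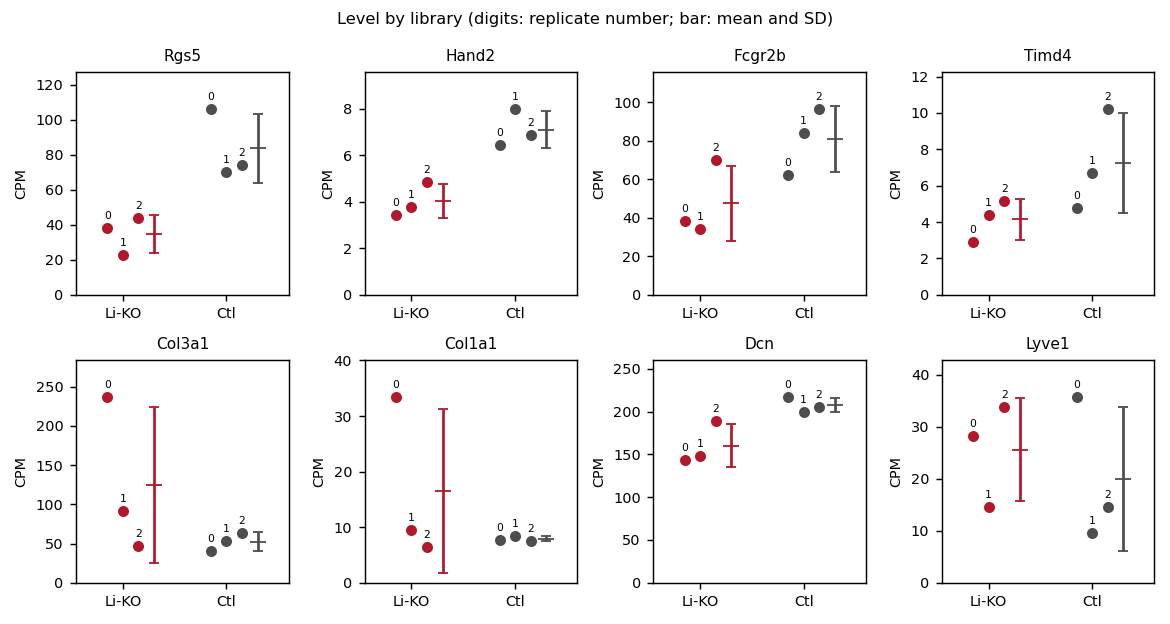
Level in CPM (y axis) of 8 marker genes in each library of Li-KO and Ctl (x axis), with the replicate number above each point and the mean and SD at the right of each group. The Li-KO points of Rgs5, Hand2 and Dcn all lie below the Ctl points, and Li-KO replicate 0 is the high point of Col3a1 and Col1a1, at 237 and 33.4 CPM.

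The other stellate markers did not pass the test. Reln, an extracellular glycoprotein made by stellate cells, had the smallest SE of the markers, with 204.5, 252 and 239 CPM in Li-KO and 247, 228 and 231 CPM in Ctl (log2 fold change -0.02 ± 0.12, adjusted p = 0.929). Dcn, the collagen-binding proteoglycan decorin, was at 143, 148 and 189 CPM in Li-KO, against 217, 199.9 and 206 CPM in Ctl. Its groups did not overlap, and its log2 fold change of -0.37 ± 0.14 did not pass (adjusted p = 0.109). Lrat, the enzyme that makes the stored retinyl esters, was at 38.7, 32.1 and 65.8 CPM in Li-KO and 57.5, 51.3 and 52.7 CPM in Ctl. Li-KO replicate 2 was above all Ctl libraries and the other two Li-KO libraries below them (log2 fold change -0.24 ± 0.24, adjusted p = 0.551). Without Li-KO replicate 2, Lrat and Dcn passed, at log2 fold changes of -0.61 and -0.52 (adjusted p = 0.029 and 0.0284). Pdgfrb, the receptor for platelet-derived growth factor that drives stellate cell growth, had a log2 fold change of 0.18 ± 0.17. Des, the muscle-type intermediate filament desmin, had one of 0.01 ± 0.27, at 3.32 to 5.80 CPM over all libraries.

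The fibrillar collagen genes were highest in 1 Li-KO library. Col3a1, the type III collagen chain, was at 237, 91.8 and 46.7 CPM in Li-KO replicates 0, 1 and 2, against 40.3, 53.6 and 63.9 CPM in Ctl. Col1a1, a type I collagen chain, was at 33.4, 9.57 and 6.46 CPM in Li-KO and 7.76, 8.40 and 7.59 CPM in Ctl. Col1a2, the other type I chain, was at 57.4, 27.2 and 21.1 CPM in Li-KO and 18.5, 23.3 and 20.7 CPM in Ctl. Li-KO replicate 0 was the highest of the 6 libraries for each of them, and the groups overlapped for each of them. Log2 fold changes were 1.25 ± 0.50 for Col3a1, 1.06 ± 0.53 for Col1a1 and 0.76 ± 0.33 for Col1a2, with adjusted p of 0.137, 0.223 and 0.17. Without Li-KO replicate 0 they were 0.42, 0.04 and 0.23. Without Li-KO replicate 2 that of Col3a1 was 1.64 and passed (adjusted p = 0.0265). Over both stellate lists, 10 of 10 collagen genes had their highest level in Li-KO replicate 0. Those 10 genes summed to 767 CPM there, to 404 and 343 CPM in the other Li-KO libraries and to 336 to 372 CPM in the Ctl libraries.

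Other cell markers were also high in that library. The list of other lymphocyte genes summed to 179, 80.4 and 69.5 CPM in Li-KO replicates 0, 1 and 2, against 66.2 to 80.5 CPM in Ctl. The list of monocyte, neutrophil and dendritic cell genes summed to 180.5, 77.7 and 57.2 CPM in Li-KO, against 38.2 to 62.5 CPM in Ctl. Most of these sums came from Cd74, the invariant chain of antigen presentation, at 130, 54.3 and 50.7 CPM in Li-KO and 48.3 to 59.7 CPM in Ctl, and from Spp1, osteopontin, at 144, 56.8 and 40.4 CPM in Li-KO and 18.9 to 42.8 CPM in Ctl. The cholangiocyte list, which also holds Spp1, summed to 166.5, 80.5 and 64.7 CPM in Li-KO and 48.2 to 81.4 CPM in Ctl, while Cftr on it was at 0.0538 to 0.535 CPM. Li-KO replicate 0 held the highest level of 17 of 20 tested other lymphocyte genes. It held that of 9 of 14 tested monocyte, neutrophil and dendritic cell genes and of 2 of 9 tested cholangiocyte genes. Among all 16533 genes tested, 3949 were highest in that library. The part of these cell lists in the collagen values was not tested.

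Within a library, the ratio of a marker to another marker of the same cell group does not depend on the scaling between libraries. Ratios were formed on FPKM, the authors' level per gene length and library depth, for pairs chosen after the values were seen, and are given without a test. Rgs5 over Reln was 0.558, 0.270 and 0.524 in Li-KO, against 1.23, 0.888 and 0.912 in Ctl. Hand2 over Reln was 0.105, 0.0960 and 0.136 in Li-KO, against 0.166, 0.211 and 0.170 in Ctl. Dcn over Reln was 4.56, 3.81 and 4.81 in Li-KO, against 5.76, 5.69 and 5.55 in Ctl. For these 3 ratios the highest Li-KO value lay below the lowest Ctl value. Rgs5 over Dcn, at 0.122, 0.0710 and 0.109 in Li-KO and 0.214, 0.156 and 0.164 in Ctl, did not overlap either, while Lrat over Reln did, at 0.292 to 0.584 in Li-KO and 0.504 to 0.528 in Ctl. Of 26 ratios formed, 8 had all Li-KO values below all Ctl values, 0 had them above and 18 overlapped. The 26 include ratios between cell groups, 3 of them of summed groups. Several share a gene, so they are not independent. Of all single genes tested, 17.8% did not overlap in the lower direction and 17.4% in the higher one.

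**Figure D3:**
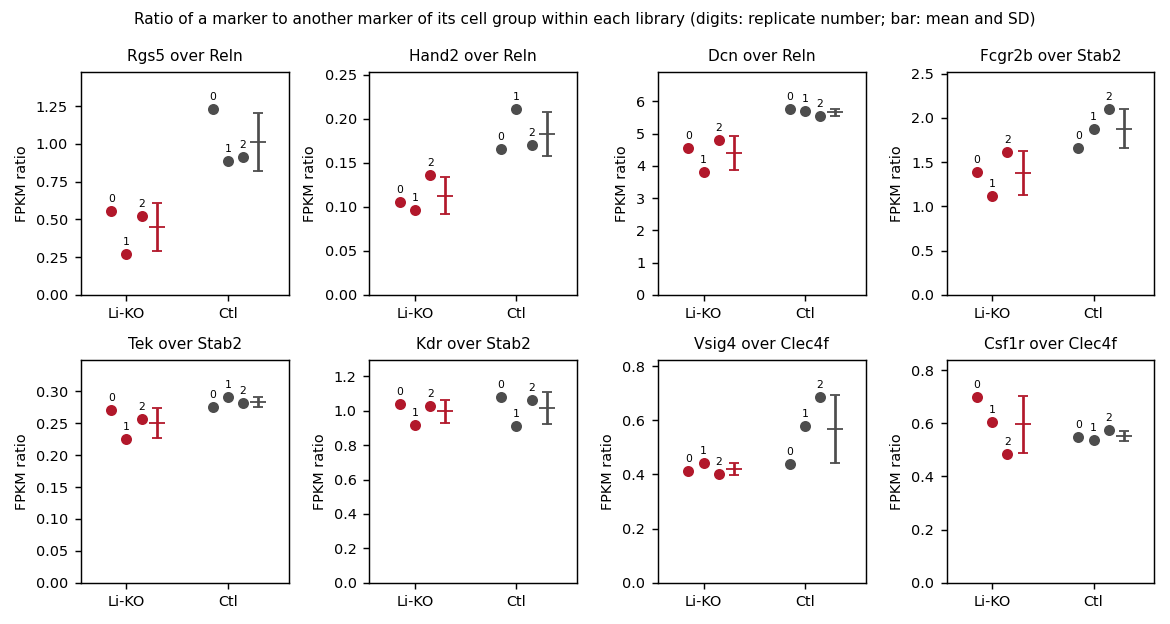
FPKM ratio of 1 marker to another marker of its cell group (y axis) within each library of Li-KO and Ctl (x axis), with the replicate number above each point and the mean and SD beside each group. The ratios of Rgs5, Hand2 and Dcn to Reln and of Fcgr2b and Tek to Stab2 are lower in every Li-KO library than in every Ctl library, while Kdr over Stab2 and Csf1r over Clec4f overlap.

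Kupffer cell genes were at similar mean levels in both groups, apart from Timd4 and Vsig4. Clec4f, a galactose-binding lectin found on mouse Kupffer cells, was at 87.9, 71.1 and 95.6 CPM in Li-KO and 79.4, 83.0 and 104 CPM in Ctl. Its log2 fold change was -0.07 ± 0.16 (adjusted p = 0.814). Csf1r, the receptor through which CSF1 and IL-34 keep macrophages alive, was at 97.9, 68.2 and 71.2 CPM in Li-KO and 67.6, 70.7 and 97.0 CPM in Ctl (log2 fold change 0.01 ± 0.19, adjusted p = 0.976). In both genes, the spread within a group was larger than the difference between the groups. Csf1r overlaps Hmgxb3 on the other strand, and that gene had 8803 counts over the 6 libraries against 17194 for Csf1r.

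The receptors that bind dying cells and complement-coated particles gave the largest negative values among the Kupffer genes. Timd4, a phosphatidylserine receptor of resident macrophages, was at 2.90, 4.37 and 5.15 CPM in Li-KO, against 4.79, 6.70 and 10.2 CPM in Ctl. Only Li-KO replicate 2 and Ctl replicate 0 broke the separation, and the log2 fold change of -0.80 ± 0.32 did not pass (adjusted p = 0.143). Vsig4, a receptor for complement C3 fragments, was at 20.1, 17.8 and 23.1 CPM in Li-KO, against 19.8, 27.3 and 42.4 CPM in Ctl (log2 fold change -0.55 ± 0.26, adjusted p = 0.196). Ctl replicate 2 was the highest library for both genes. Without it the log2 fold changes were -0.47 and -0.21. Marco, a scavenger receptor, was at 12.4, 5.20 and 5.40 CPM in Li-KO and 10.2, 4.41 and 9.39 CPM in Ctl. It had no consistent order between groups (log2 fold change -0.06 ± 0.41, adjusted p = 0.94).

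The secreted products of Kupffer cells varied between libraries within both groups. The chains of complement C1q are encoded by 3 neighbouring genes on chromosome 4, C1qb (136880129 to 136886187), C1qc (136889804 to 136893065) and C1qa (136895917 to 136898803). C1qa was at 45.9, 24.6 and 34.9 CPM in Li-KO and 35.3, 37.7 and 52.0 CPM in Ctl. All 3 chains were lowest in Li-KO replicate 1, and their log2 fold changes were -0.25 ± 0.24, 0.003 ± 0.24 and -0.03 ± 0.21 for C1qa, C1qb and C1qc. The FPKM ratio of C1qb over C1qc was 0.930 to 1.03 in Li-KO and 0.849 to 1.09 in Ctl, with overlap. That of C1qa over C1qc was 1.09, 1.02 and 1.12 in Li-KO, against 1.13, 1.21 and 1.25 in Ctl, without overlap. Cd5l, a secreted scavenger protein of tissue macrophages, was at 104, 67.7 and 76.0 CPM in Li-KO and 64.7, 68.0 and 101 CPM in Ctl (log2 fold change 0.08 ± 0.21). Adgre1, which encodes the macrophage surface antigen F4/80, had a log2 fold change of 0.20 ± 0.22, and Cd68, a lysosomal membrane protein, one of -0.11 ± 0.28. Of the 11 Kupffer genes, 6 had their highest level in Li-KO replicate 0 and 4 in Ctl replicate 2, and 5 had their lowest level in Li-KO replicate 1.

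**Figure D4:**
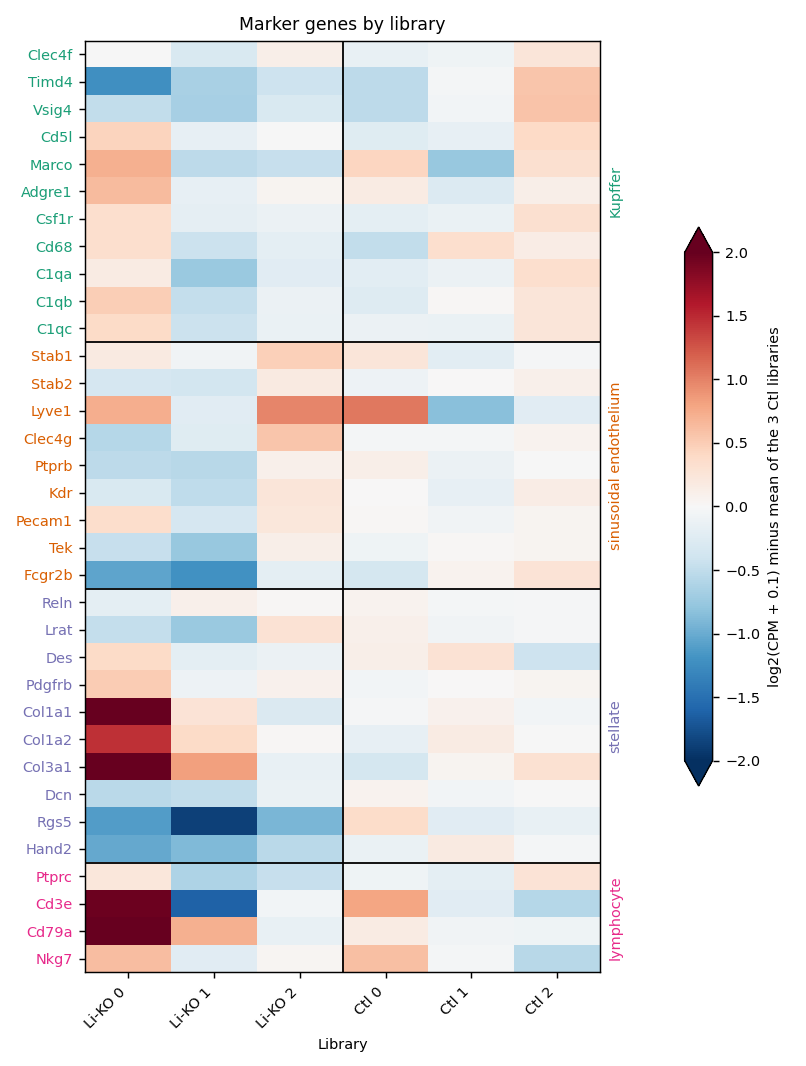
Level of each of the 34 marker genes (rows, grouped and coloured by cell group) in each library (columns, Li-KO left of the line and Ctl right), as log2(CPM + 0.1) minus the mean of the 3 Ctl libraries. Rgs5 and Hand2 are below the Ctl mean (blue) in all 3 Li-KO columns, and so are Timd4, Vsig4, Fcgr2b and Dcn, which were not called. Col1a1, Col3a1, Cd3e and Cd79a are dark red in Li-KO replicate 0.

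Endothelial genes varied more among the Li-KO libraries than among the Ctl libraries. The 9 genes summed to 103, 94.4 and 162.5 FPKM in Li-KO and to 137, 126 and 142 FPKM in Ctl, so Li-KO replicate 2 lay above the Ctl range and the other two Li-KO libraries below it. Li-KO replicate 2 held the highest level of 5 of the 9 genes and Li-KO replicate 1 the lowest of 6. Stab2, a scavenger receptor for hyaluronan and a defining gene of these cells, was at 148, 145 and 212 CPM in Li-KO and 174, 188 and 199.8 CPM in Ctl (log2 fold change -0.15 ± 0.17, adjusted p = 0.581). Stab1, its paralog, was at 133, 111 and 163 CPM in Li-KO and 138, 100.4 and 115 CPM in Ctl (log2 fold change 0.20 ± 0.17). Stab1 overlaps Nt5dc2 on the other strand, and that gene had 2131 counts against 28116 for Stab1. Clec4g, the lectin LSECtin, was at 32.0, 39.9 and 69.6 CPM in Li-KO and 46.4, 46.1 and 49.9 CPM in Ctl (log2 fold change -0.01 ± 0.25).

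Fcgr2b, the inhibitory Fc gamma receptor that clears immune complexes in the sinusoids, gave the largest negative value of the endothelial genes. It was at 38.2, 34.3 and 69.8 CPM in Li-KO, against 62.4, 83.9 and 96.4 CPM in Ctl. Li-KO replicate 2 lay within the Ctl range, and the log2 fold change of -0.77 ± 0.28 did not pass (adjusted p = 0.105). It passed with DESeq2 (adjusted p = 0.0334) and without Li-KO replicate 2 (0.013). Over Stab2, Fcgr2b was at an FPKM ratio of 1.39, 1.12 and 1.62 in Li-KO, against 1.66, 1.88 and 2.10 in Ctl, with no overlap. Fcgr2b is also made by Kupffer cells and B cells. Over the Kupffer gene Clec4f it was at 0.648, 0.631 and 0.980 in Li-KO, against 1.01, 1.16 and 1.07 in Ctl, also with no overlap.

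The vascular receptors were measured beside Stab2. Kdr, the main receptor for VEGF-A, was at 101, 87.2 and 147 CPM in Li-KO and 125, 111 and 139 CPM in Ctl (log2 fold change -0.16 ± 0.19, adjusted p = 0.618). Kdr over Stab2 was 0.920 to 1.04 in Li-KO and 0.909 to 1.08 in Ctl. Tek, the angiopoietin receptor TIE2, was at 19.6, 16.0 and 29.6 CPM in Li-KO and 25.7, 27.7 and 28.2 CPM in Ctl (log2 fold change -0.32 ± 0.21). Ptprb, the phosphatase that acts on it, was at 239, 235 and 373 CPM in Li-KO and 376, 320 and 343 CPM in Ctl (log2 fold change -0.30 ± 0.19). Tek over Stab2 was 0.270, 0.225 and 0.256 in Li-KO, against 0.276, 0.291 and 0.281 in Ctl, without overlap. Without Li-KO replicate 2, Tek and Ptprb passed, at log2 fold changes of -0.61 and -0.55 (adjusted p = 0.0349 and 0.0323). Pecam1, an adhesion molecule of all endothelium, had a log2 fold change of 0.11 ± 0.18.

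Lyve1 did not follow the other endothelial genes. It encodes a hyaluronan receptor of sinusoidal and lymphatic endothelium, and its levels were 28.3, 14.6 and 33.8 CPM in Li-KO replicates 0, 1 and 2 and 35.8, 9.58 and 14.5 CPM in Ctl replicates 0, 1 and 2. Both groups thus held high and low libraries, and the log2 fold change was 0.36 ± 0.47 (adjusted p = 0.661). Lyve1 over Stab2 was 0.596, 0.313 and 0.482 in Li-KO and 0.617, 0.154 and 0.218 in Ctl. Its log2 fold change was 1.08 without Ctl replicate 0 and 0.04 to 0.64 without any other library.

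Lymphocyte markers were at or near the limit of detection, except Ptprc. Ptprc, the pan-leukocyte antigen CD45 that Kupffer cells also carry, was at 27.1, 15.1 and 16.6 CPM in Li-KO and 21.8, 20.1 and 27.8 CPM in Ctl (log2 fold change -0.25 ± 0.24, adjusted p = 0.528). It overlaps A130071D04Rik on the same strand, which had 711 counts over the 6 libraries against 4701 for Ptprc, so their reads may not be fully separated. Cd3e, a chain of the T cell receptor complex, had 34, 0 and 8 counts in Li-KO and 18, 6 and 4 counts in Ctl. The 0 in Li-KO replicate 1 allows up to 0.0963 CPM, the value of 3 counts, which covers counting error only. Cd79a, of the B cell receptor complex, had 44, 8 and 4 counts in Li-KO and 6, 4 and 4 in Ctl. Nkg7, of cytotoxic granules, had 15, 7 and 12 counts in Li-KO and 20, 10 and 6 in Ctl (log2 fold change 0.13 ± 0.61). Li-KO replicate 0 held the highest count of Cd3e and Cd79a, and Ctl replicate 0 that of Nkg7.

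**Figure D5:**
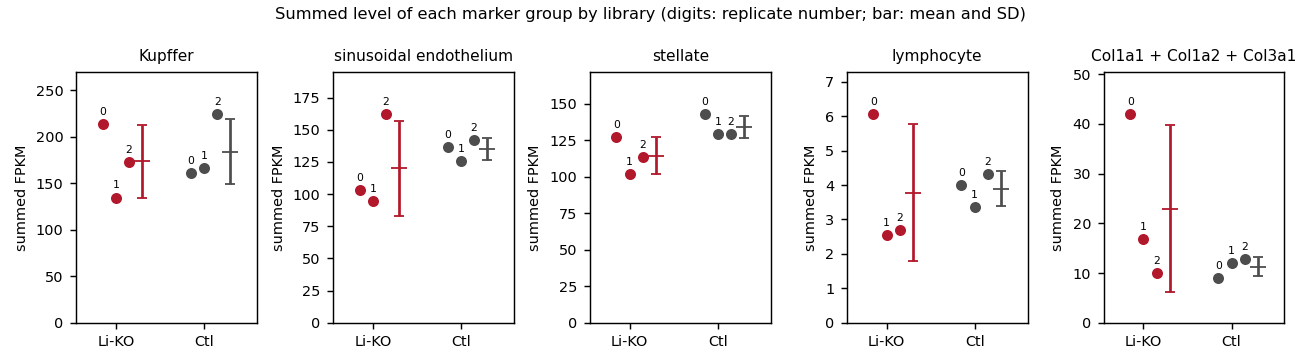
Summed FPKM (y axis) of the markers of each cell group, and of the 3 fibrillar collagen genes alone, in each library of Li-KO and Ctl (x axis), with the replicate number above each point and the mean and SD beside each group. The stellate sum is lower in every Li-KO library, at 102 to 127 against 130 to 143 FPKM, and the other sums overlap.

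Set against each other, the Kupffer and endothelial sums had a wider spread within Li-KO than the difference between the group means. Kupffer genes summed to 214, 135 and 173 FPKM in Li-KO and 161.5, 166 and 225 FPKM in Ctl. Stellate genes summed to 127, 102 and 114 FPKM in Li-KO, against 143, 129.6 and 129.6 FPKM in Ctl, without overlap, and Dcn is the largest term of that sum. On the CPM scale, which is not divided by length, the stellate sums overlapped, at 783, 605 and 638 CPM in Li-KO and 721, 664 and 682 CPM in Ctl. Without the 3 collagens the stellate list summed to 456, 476 and 563.5 CPM in Li-KO, against 654, 578.5 and 590.1 CPM in Ctl. Those 3 had the largest positive log2 fold changes on the list, so these lower Li-KO sums follow in part from leaving them out. The ratio of the summed Kupffer to the summed endothelial FPKM was 2.07, 1.43 and 1.06 in Li-KO and 1.18, 1.32 and 1.58 in Ctl. That of stellate to endothelial genes was 1.24, 1.08 and 0.699 in Li-KO and 1.05, 1.03 and 0.910 in Ctl.

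Hemoglobin genes separated the groups in the same direction as Rgs5 and Hand2. The 4 hemoglobin genes summed to 467, 206 and 427 CPM in Li-KO, against 575, 581 and 640 CPM in Ctl, and none of the 4 overlapped between the groups. The test called 0 of them, with Hbb-bs at a log2 fold change of -0.63 ± 0.27 (adjusted p = 0.165) and Hba-a1 at -0.99 ± 0.29 (adjusted p = 0.0601). The whole list of 9 erythroid and platelet genes summed to 302 to 597 CPM in Li-KO and 746 to 817.5 CPM in Ctl. Of these 9, 5 did not overlap between the groups, all lower in Li-KO. In that direction, 17.8% of all genes tested did not overlap. On that list edgeR called 0, with 5 at an unadjusted p under 0.05, and DESeq2 called 3 lower, beside 1555 lower over all genes. The part of these 9 genes in the lower Rgs5 and Hand2 levels was not tested.

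Further genes of the same cell types were taken from lists that the named markers do not hold. Of 26 other Kupffer and macrophage genes, 2 were called higher and 0 lower by edgeR, with 5 at an unadjusted p under 0.05 and a median log2 fold change of 0.04. DESeq2 called 2 higher and 2 lower, beside 1603 higher and 1555 lower over all genes. The 2 called higher by edgeR were Id3 and Nr1h3. Id3, an inhibitor of helix-loop-helix factors, had a log2 fold change of 1.23 ± 0.27 (adjusted p = 0.0262). Nr1h3, the oxysterol receptor LXR alpha that hepatocytes also express, had one of 0.49 ± 0.12 (adjusted p = 0.0338). Of 28 other endothelial genes, 0 were called by edgeR, DESeq2 or limma-voom, and 4 had an unadjusted p under 0.05 with edgeR (median -0.18). Without Li-KO replicate 2, 8 of them were called lower, and so were 4 of the other Kupffer and 5 of the other stellate genes. Over all genes that fit called 1447 lower, against 976 with all 6 libraries. The most abundant of the other endothelial genes were Egfl7, at a log2 fold change of 0.16 ± 0.14, and Ehd3, at -0.47 ± 0.24. Of 36 tested stellate and fibroblast genes, 1 was called higher and 1 lower (median 0.05), while DESeq2 called 1 higher and 3 lower. Gas6, a ligand of the TAM receptors, rose to 93.0, 102 and 60.0 CPM in Li-KO, against 36.4, 54.4 and 50.2 CPM in Ctl (log2 fold change 0.85 ± 0.22, adjusted p = 0.0424). Omitting 1 of the 6 libraries in turn left 3, 1 and 1 of 6 fits in which Id3, Nr1h3 and Gas6 were called, at adjusted p of at most 0.101, 0.114 and 0.143. Id3 and Gas6 also missed the threshold in both limma fits on FPKM, and Gas6 on library totals alone.

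Ligands of receptors of these cells were measured for comparison, and not all of these receptors are among the named markers. Of 11 tested, 1 was called. It was Vegfb, a ligand of FLT1, whose gene is on the list of other endothelial genes and is not a named marker. Vegfb fell to 4.29, 3.95 and 6.51 CPM in Li-KO, against 10.8, 12.4 and 7.03 CPM in Ctl. Its log2 fold change was -1.03 ± 0.28 (adjusted p = 0.0472). The call held in 1 of 6 fits with a library omitted (largest adjusted p 0.178). The Vegfb call also ended with limma-voom and in both limma fits on FPKM. Vegfa, the ligand of Kdr, was at 240, 309 and 258 CPM in Li-KO and 217, 307 and 278 CPM in Ctl (log2 fold change 0.01 ± 0.16). Csf1, a ligand of Csf1r, chosen after its values were seen, was at 14.1, 14.6 and 16.6 CPM in Li-KO and 15.3, 29.8 and 31.6 CPM in Ctl (log2 fold change -0.76 ± 0.26, adjusted p = 0.0882). The groups overlapped through Ctl replicate 0. Of 12 measured hepatocyte genes, 2 were called lower, among them Tdo2, and 1 higher (Asgr2), a share of 25.0% against 12.0% of all genes tested.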

How the data were processed

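The tools STAR, Cufflinks and Cuffdiff and the build mm10 are named in the submitters' processing notes. Their versions, options, strand use and annotation were not given in the sources. Per the file headers, the deposited raw fragments are estimated counts that are not normalized (3.291% are not whole), and the deposited FPKM stand beside them, with a scaling between libraries that is not stated. Cuffdiff skipped 77 genes in some library; these stayed out of totals and tests, and no marker is among them. Conditions KO and WT of the table were matched to Li-KO and Ctl, where WT was taken as Ctl as the only group that is not a knockout. The lower Klf15 level in KO columns goes with this match.

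Counts were rounded, filtered with filterByExpr of edgeR 4.0.16 (minimum count 10, minimum total 15), scaled by TMM and given as CPM. Li-KO was compared with Ctl by edgeR's quasi-likelihood test, two-sided, over 6 libraries, with Benjamini-Hochberg adjustment over 16533 genes. The test was checked on simulated data. Symbols matched 48051 of 48432 gene IDs, and positions are from GENCODE M21. Alternatives used DESeq2 1.42.0 and limma 3.58.1 (R 4.3.3), with log2(FPKM + 0.1) or log2(FPKM + 1) for FPKM. Figures were drawn with matplotlib 3.10.9. Depth was 30.1 to 42.8 fragments per library, in units of 1000000. SEs and p-values also rest on the spread between the 3 libraries of each group.

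The markers and lists were chosen with earlier results of these data known. All markers are accounted for. From each other list up to 3 called genes per direction with the smallest p were to be named, and the 2 of highest mean FPKM where fewer than 2 were called; Sox9, Coro1a, S100a9 and the named genes of the mesothelium and proliferation lists are given in the closing section. Some genes that this rule names are not reported here. Genes said to be chosen after their values were seen fall outside this rule. The labels give no pairing, and deviations of same-numbered libraries correlated only weakly (0.018, 0.081 and 0.067), so they were not paired. Deviations were taken from means of 3 libraries, so this check cannot settle whether the numbers pair them.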

Additional observations from a re-analysis of the deposited data

How the results depend on the processing

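Over 16 alternatives, the log2 fold changes of the 32 tested markers kept their direction and their side of the threshold in 454 of 511 comparisons. Markers called lower numbered 2 in the reported fit, 1 with limma on log2(FPKM + 0.1), 0 with limma on log2(FPKM + 1), 3 with DESeq2 and 2 with a replicate block, which adds Fcgr2b (adjusted p = 0.0305) and loses Hand2 (0.0573). The labels do not say whether the numbers pair the libraries, and not every library correlated best with its own number. Leaving out a library gave 0 to 7 markers called lower and 0 to 1 called higher. Without Li-KO replicate 2 the 7 were Ptprb, Tek, Fcgr2b, Lrat, Dcn, Rgs5 and Hand2, and the 1 was Col3a1. The cause was not tested. Over all genes, 1603 were called higher and 1555 lower with DESeq2, 630 and 641 with limma on log2(FPKM + 0.1), 577 and 595 with limma on log2(FPKM + 1), and 198 to 1102 and 234 to 1447 without a library, against 1010 and 976 as reported. With a replicate block they were 956 and 1015.

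Medians ranged without a library from -0.284 to 0.107 for Kupffer genes, -0.404 to -0.016 for endothelial genes, -0.104 to 0.080 for stellate genes and -0.371 to 0.334 for lymphocyte genes. With no filter the lymphocyte median was 0.496, because Cd3e and Cd79a then enter. Signs turned only in markers that did not pass in any fit: Csf1r to -0.008 and -0.007 with limma on FPKM, C1qb to -0.038 with limma-voom, -0.036 and -0.033 with limma on FPKM and -0.041 with a replicate block, and Clec4g to 0.002 with no filter and 0.004 with skipped genes kept at 0. Without a library, log2 fold changes ran from -0.167 to 0.060 for Clec4f, -0.097 to 0.311 for Cd5l, -0.573 to 0.149 for Marco, -0.048 to 0.355 for Adgre1, -0.151 to 0.190 for Csf1r, -0.336 to 0.088 for Cd68, -0.284 to 0.196 for C1qb, -0.261 to 0.135 for C1qc, -0.404 to 0.224 for Clec4g, -0.007 to 0.292 for Pecam1, -0.086 to 0.080 for Reln, -0.171 to 0.185 for Des and -0.207 to 0.624 for Nkg7.

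Cd3e, Cd79a and Nkg7 rest on at most 44 counts a library, which limits what can be said of these 3 genes. The call of Vegfb ended with a replicate block.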

Other observations

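Genes of other cell lists were read beside the nonparenchymal markers. Sox9, a transcription factor of bile duct cells, fell to 3.32, 3.05 and 2.09 CPM in Li-KO, against 11.7, 15.8 and 16.6 CPM in Ctl. Its log2 fold change was -2.39 ± 0.24 (adjusted p = 0.00153, edgeR), and it was called with each library omitted in turn. It was the 1 gene called of 9 tested cholangiocyte genes.

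Of 20 tested other lymphocyte genes, edgeR called 0, with 2 at an unadjusted p under 0.05, and DESeq2 called 1. Coro1a, a leukocyte actin-binding protein, was at 10.2, 5.17 and 3.48 CPM in Li-KO and 3.28 to 3.76 CPM in Ctl. Of 14 tested monocyte, neutrophil and dendritic cell genes, edgeR called 0, with 5 at an unadjusted p under 0.05, and DESeq2 called 2. S100a9, a neutrophil protein, was at 0.802 to 2.10 CPM in Li-KO and 0.983 to 2.71 CPM in Ctl. Of 5 tested genes of mesothelium and other tissues, edgeR called 0, with 2 at an unadjusted p under 0.05, and DESeq2 called 1. Cela1 and Gpm6a on that list had log2 fold changes of -0.51 ± 0.25 and -0.14 ± 0.28. Of 9 tested proliferation genes, edgeR called 0, with 2 at an unadjusted p under 0.05, and DESeq2 called 1. Cdk1 and Birc5 had log2 fold changes of 0.07 ± 0.38 and -1.21 ± 0.41.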
